A study of Homo sapiens with 12 samples.

Results

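The insulin-like growth factor (IGF) family measured here was IGF2, its receptors and the IGF binding proteins, in cultured human endothelial cells. Its 10 genes are IGF2, IGF1R, IGF2R and IGFBP1 to IGFBP7. They were taken by symbol from the deposited table, which lists 35587 symbols, and each was read in all 12 libraries. The family was selected on its TPM in all 12 libraries, which were known when it was proposed, so its levels and differences are a description and no test of a family member is given. Of the 10 genes, 9 reached 1 TPM in at least 2 libraries and were among the 13299 genes tested. IGF1R did not, with 1 library at 1 TPM or more. IGF2 reached 1 TPM in 4 libraries, all NT, IGFBP1 in 8, all of the edited lines, and IGFBP2 in 3, all NKO, so each of these passed only through libraries in which it was high.

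The cells were TeloHAEC, an aortic endothelial line kept in culture by telomerase. The groups were the control line NT, whose genotype the labels call wild type, the line TKO, made with Cas9 and a guide RNA to TSPAN14, and the line NKO, made with Cas9 and a guide RNA to NOTCH1. Each line was plated on plastic coated with IgG or with the Notch ligand DLL4, at 2.5 mg/mL, and polyadenylated RNA was taken after 24 hours, with 2 libraries for each of the 6 groups. Each knockout is represented by 1 line, and whether that line is a clone or a pool is not given in the sources used here. TSPAN14 is a tetraspanin that binds ADAM10, the protease that cleaves Notch receptors, and NOTCH1 is such a receptor. The labels number the libraries as biological replicates and say nothing more of separate cultures, so the p-values below measure the spread between these libraries, which may be technical. Values are TPM (transcript abundance scaled to a common library total and corrected for transcript length), so levels can be set side by side between genes, while the number of reads behind them is unknown. Libraries carry the numbers of their columns, 2 and 3 in NT and TKO and 1 and 2 in NKO.

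IGF2 is an imprinted growth factor that signals through the IGF1 receptor and the insulin receptor. IGF2R, the cation-independent mannose-6-phosphate receptor, takes IGF2 up for degradation in lysosomes. The proteins IGFBP1 to IGFBP6 bind IGFs tightly and can hold them away from the receptor or carry them to it, while IGFBP7 binds them weakly and is abundant in endothelium.

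The libraries of a group correlated at 0.987 to 0.992 across the tested genes on the log2 scale. TSPAN14 was lower in TKO than in NT cells (-0.57 ± 0.10, SE, limma adjusted p = 0.0015 with IgG coating, and -0.68 ± 0.10, adjusted p = 0.00039 on DLL4) but still transcribed. NOTCH1 differed between NKO and NT cells by -0.61 ± 0.16 on DLL4 (limma adjusted p = 0.023) and by -0.10 ± 0.16 on IgG (adjusted p = 0.72). The DLL4 call ended without NT DLL4 library 2 (adjusted p = 0.16) or NKO DLL4 library 1 (adjusted p = 0.15). NOTCH1 was called higher on DLL4 than on IgG in NT cells (0.55 ± 0.16, limma adjusted p = 0.041), a call that was lost without NT DLL4 library 2 (adjusted p = 0.26) or either NT IgG library (adjusted p = 0.18 and 0.11). NKO means were 17.4 TPM on IgG and 18.0 TPM on DLL4, so its mRNA does not check the NKO label on either coating. All 10 endothelial markers were at 1 TPM or more in every library. KPNA2P2, a pseudogene entry, took between 0.28% and 5.61% of a library's TPM. In bulk RNA, fewer cells of a type and less RNA per cell cannot be told apart.

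Of the binding proteins of at least 5 TPM in some group, upstream sequences are shown for the genes of IGFBP5, IGFBP4 and IGFBP3. These were the ones whose DLL4 libraries lay above their IgG libraries, without overlap, in NT and in TKO cells. A start-site sequence in the RefSeq table used here was also required. Of the 10 family genes, 7 matched that table (GRCh38.p14). Each run is the 250 bases before the RefSeq start, 5′ to 3′ on the gene's strand. Capitals mark the letters TGGGAA, the core bound by RBPJ, the DNA-binding partner of Notch.
IGFBP5: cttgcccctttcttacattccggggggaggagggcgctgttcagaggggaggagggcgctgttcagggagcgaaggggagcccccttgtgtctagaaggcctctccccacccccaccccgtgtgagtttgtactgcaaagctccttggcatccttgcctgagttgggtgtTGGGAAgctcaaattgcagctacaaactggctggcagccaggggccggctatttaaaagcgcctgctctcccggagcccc
IGFBP4: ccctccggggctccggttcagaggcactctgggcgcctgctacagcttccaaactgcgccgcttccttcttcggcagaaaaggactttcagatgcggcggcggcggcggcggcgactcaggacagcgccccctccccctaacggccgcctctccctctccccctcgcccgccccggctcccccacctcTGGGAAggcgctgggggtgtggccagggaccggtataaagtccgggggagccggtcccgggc
IGFBP3: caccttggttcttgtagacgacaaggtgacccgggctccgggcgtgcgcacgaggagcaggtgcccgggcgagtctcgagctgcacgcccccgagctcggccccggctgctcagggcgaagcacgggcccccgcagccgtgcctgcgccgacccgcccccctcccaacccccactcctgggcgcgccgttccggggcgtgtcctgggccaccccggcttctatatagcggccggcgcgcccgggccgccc
The IGFBP5 run lies at chr2:216695550-216695799 on the minus strand, inside an intron of the antisense gene AC007563.2 in GENCODE 29. That of IGFBP4 lies at chr17:40443200-40443449 on the plus strand, upstream of the annotated gene. The third lies at chr7:45921273-45921522 on the minus strand, upstream of the main IGFBP3 start and inside an intron of a longer IGFBP3 transcript. TGGGAA or its reverse complement TTCCCA occurred once in the IGFBP5 window, 80 to 75 bases before the start, and once in the IGFBP4 window, 62 to 57 bases before it. IGFBP6 also held 1 match, and the windows of IGFBP3, IGFBP2, IGF1R and IGF2R held none. Of all 34788 promoters in the table, 7234 (20.8%) held these letters on either strand, and the longer GTGGGAA, which contains them, was in 1880 (5.40%) and in none of the family. The matches are letters in a window and no binding was measured.

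IGF2 was present in the control line and near the bottom of the measured range in both edited lines. It lies on chromosome 11 (2129112 to 2149603, minus strand, GRCh38). In NT cells on IgG it was at 17.5 and 20.7 TPM in libraries 2 and 3, and on DLL4 at 12.9 and 13.1 TPM. The TKO libraries held 0.442 and 0.709 TPM on IgG and 0.359 and 0.480 TPM on DLL4. The NKO libraries held 0.646 and 0.598 TPM on IgG and 0.384 and 0.593 TPM on DLL4. All 4 NT libraries lay above all 8 libraries of the edited lines, and the 4 edited groups, in the order of their means, overlapped each with the next.

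The mean of IGF2 on IgG was 33.2-fold lower in TKO than in NT cells, a difference of -3.67 ± 0.17 on the log2(TPM + 1) scale (SE of the fit over the 12 libraries). The corresponding difference in NKO cells was -3.63 ± 0.17, or 30.7-fold. On DLL4 the differences were -3.30 in TKO cells and -3.24 in NKO cells. Both edited lines were compared with the same NT libraries, so their values are not independent of each other. With 0.1 in place of 1 added to the TPM, the same 4 differences were -4.85, -4.73, -4.67 and -4.50, since the added constant counts for much at such low levels. DLL4 was accompanied by a lower IGF2 level in NT cells (19.1 ± 2.22 to 13.0 ± 0.184 TPM, SD, n = 2, log2 difference -0.52 ± 0.17), and the libraries did not overlap. In TKO and NKO cells the difference was -0.15 and -0.13, and the difference of the responses from that in NT cells was 0.37 ± 0.24 and 0.39 ± 0.24. As ratios of means, IGF2 on DLL4 was 1.47-fold lower in NT, 1.37-fold in TKO and 1.27-fold in NKO cells. Libraries of the coatings overlapped in TKO cells and not in NKO cells. The added 1 shrinks the differences within the edited lines, whose levels lay below 1 TPM. INS-IGF2, a read-through transcript that shares IGF2 sequence, was listed at 0 in 11 libraries and at 0.0822 TPM in TKO library 2 on DLL4. H19 and IGF2-AS were sought by symbol too, and the deposited symbols did not include them.

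**Figure D1:**
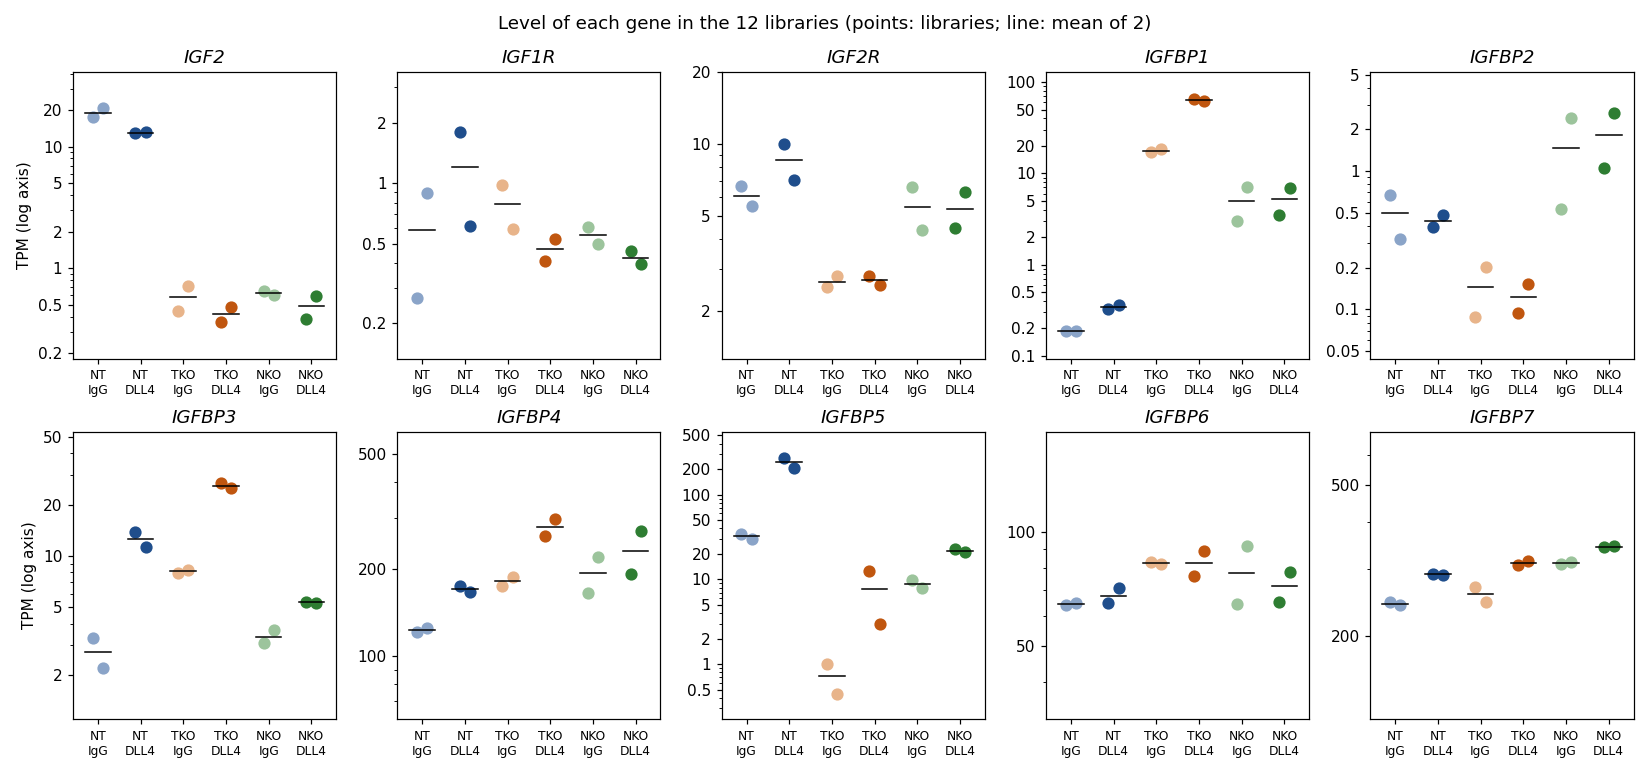
TPM of the 10 genes on log axes, 1 panel per gene with its own scale, in NT (blue), TKO (orange) and NKO (green) cells on IgG (pale) and DLL4 (dark); points are libraries and lines are means of 2. IGF2 is above 12 TPM in the NT libraries and below 1 TPM in the others, IGFBP1 is lowest in the NT libraries, and IGFBP6 and IGFBP7 span the narrowest range.

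The mRNA of IGF1R, a signalling receptor of IGF2, was scarce, and that of the clearance receptor IGF2R was moderate. IGF1R (chromosome 15, 98648539 to 98964530, plus strand) was between 0.267 and 1.79 TPM over the 12 libraries, and its 2 extremes were both NT libraries. Every group overlapped with its neighbour in the order of means. For IGF1R the TKO and NKO libraries on DLL4 still lay below those of the same line on IgG. They also lay below the NT libraries on DLL4. IGF2R (chromosome 6, 159969099 to 160113507, plus strand) was at 6.63 and 5.51 TPM in NT cells on IgG and at 10.04 and 7.05 TPM on DLL4. The TKO libraries held 2.51 and 2.78 TPM on IgG and 2.80 and 2.55 TPM on DLL4, below every other library. The NKO libraries held 6.57 and 4.35 TPM on IgG and 4.44 and 6.28 TPM on DLL4.

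IGF2R was thus lower in TKO than in NT cells by 2.30-fold on IgG (-0.95 ± 0.22) and by 3.19-fold on DLL4 (-1.36 ± 0.22). NKO cells overlapped with NT cells on IgG (-0.15 ± 0.22) and lay below them on DLL4 (-0.58 ± 0.22). The difference of DLL4 from IgG was 0.42 ± 0.22 for NT, 0.01 for TKO and -0.02 for NKO. IGF2R exceeded IGF1R in all 12 libraries, and it exceeded IGF2 in the 8 libraries of the edited lines, while IGF2 was above IGF2R in the 4 NT libraries.

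IGFBP5, a binding protein that also attaches to the extracellular matrix, had the largest difference between DLL4 and IgG in NT cells among the 10 genes. Its gene lies on chromosome 2 (216672105 to 216695525, minus strand). In NT cells it was at 34.8 and 29.7 TPM on IgG and at 273.7 and 207.6 TPM on DLL4, 7.47-fold higher (2.85 ± 0.42). TKO libraries showed 1.00 and 0.450 TPM on IgG and 12.4 and 3.01 TPM on DLL4. NKO libraries showed 9.83 and 7.95 TPM on IgG and 22.6 and 21.0 TPM on DLL4. DLL4 libraries lay above IgG libraries in each line, and all NT libraries lay above all libraries of the edited lines.

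On IgG, IGFBP5 was 44.4-fold lower in TKO than in NT cells (-4.28 ± 0.42) and 3.63-fold lower in NKO cells (-1.75 ± 0.42). On DLL4 it was 31.1-fold lower in TKO cells (-5.03 ± 0.42) and it was lower in NKO cells too (-3.39 ± 0.42). The difference of DLL4 from IgG was 2.11 ± 0.42 in TKO cells (10.6-fold) and 1.21 ± 0.42 in NKO cells (2.46-fold). From the NT response these differed by -0.75 ± 0.59 and -1.64 ± 0.59. The TKO value rests on 2 libraries that differ widely. Without TKO DLL4 library 2 the TKO response was 1.24 and its difference from NT -1.62, without library 3 they were 2.98 and 0.13, and with 0.1 added to the TPM they were 3.0 and 0.12.

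IGFBP3, the main carrier of circulating IGFs, was also higher on DLL4 in each line. It lies on chromosome 7 (45912245 to 45921874, minus strand). In NT cells it was at 3.28 and 2.20 TPM on IgG and at 13.8 and 11.4 TPM on DLL4 (4.60-fold, 1.87 ± 0.16). The TKO line had 7.94 and 8.26 TPM on IgG and 26.7 and 25.1 TPM on DLL4 (3.19-fold, 1.56 ± 0.16). The NKO line had 3.06 and 3.64 TPM on IgG and 5.37 and 5.30 TPM on DLL4 (1.59-fold, 0.54 ± 0.16). On either coating the 2 TKO libraries were above the NT libraries, by 1.30 ± 0.16 on IgG and 0.99 ± 0.16 on DLL4. NKO cells overlapped with NT cells on IgG (0.23 ± 0.16) and lay below them on DLL4 (-1.09 ± 0.16).

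The response of IGFBP3 to DLL4 differed from that in NT cells by -0.31 ± 0.22 in TKO cells and by -1.33 ± 0.22 in NKO cells. Without NT IgG library 2 those values were -0.52 and -1.54, and without NT IgG library 3 they were -0.10 and -1.12. IGFBP3 and IGFBP5 therefore shared their direction on DLL4 in all 3 lines but stood in opposite order between TKO and NT cells.

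IGFBP1, a binding protein that insulin represses and FOXO factors induce in liver, was almost absent from NT cells and present in both edited lines. It lies 18.6 kb from IGFBP3 on chromosome 7 (45888357 to 45893668, plus strand), with 0 protein-coding genes between them. In NT cells it was at 0.186 and 0.187 TPM on IgG and at 0.324 and 0.366 TPM on DLL4. The TKO libraries gave 17.1 and 18.4 TPM on IgG and 64.6 and 62.0 TPM on DLL4. The NKO libraries gave 3.02 and 7.0 TPM on IgG and 3.51 and 6.98 TPM on DLL4. TKO libraries were the highest, NKO libraries lay between, and no library of 1 line overlapped with another line.

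Against NT cells on IgG, IGFBP1 was 95.2-fold higher in TKO cells (3.98 ± 0.30) and 26.9-fold higher in NKO cells (2.26 ± 0.30). On DLL4 it was 183-fold higher in TKO cells (5.58 ± 0.30) and 15.2-fold higher in NKO cells (2.16 ± 0.30). With 0.1 added to the TPM the same differences were 5.96, 4.04, 7.16 and 3.51. The difference of DLL4 from IgG was 1.78 ± 0.30 for TKO (3.57-fold), 0.18 ± 0.30 for NT (1.85-fold) and 0.08 ± 0.30 for NKO (1.05-fold). NT libraries on DLL4 lay above those on IgG. On the log2(TPM + 1) scale the TKO response exceeded that of NT cells by 1.6 ± 0.43. The added 1 shrinks the NT response, since all NT levels lay below 1 TPM. Hepatocytes are the best-known source of IGFBP1. Of 5 hepatocyte markers ALB was listed at 0 in all 12 libraries, 4 stayed below 1 TPM in every library, and TF was above it. Their summed level was 2.16 to 2.88 TPM in NT cells on IgG and 3.15 to 3.35 TPM on DLL4. In TKO cells it was 2.55 to 4.1 TPM on IgG and 2.90 to 3.34 TPM on DLL4. For NKO it was 3.25 to 3.34 TPM on IgG and 3.24 to 3.54 TPM on DLL4. The leukocyte markers summed to 0.413 to 0.859 TPM in NT cells on IgG and to 0.888 to 1.06 TPM on DLL4. In TKO cells they summed to 3.14 to 3.80 TPM on IgG and to 6.53 to 10.4 TPM on DLL4, mostly from CD14. For NKO the sums were 0.599 to 0.628 TPM on IgG and 0.767 to 1.86 TPM on DLL4. The epithelial markers comprised keratins, and EPCAM and CDH1, which stayed below 1 TPM in every library. On IgG they summed to 723.9 to 837.9 TPM in NT, 1085.4 to 1304.2 TPM in TKO and 940.5 to 1275.4 TPM in NKO cells. On DLL4 the sums were 856.5 to 863.9, 912.3 to 1008.2 and 905.6 to 1344.7 TPM in the same order. Mean KRT19 was 202.7 TPM for NT, 668.5 TPM for TKO and 218.2 TPM for NKO on IgG, and 64.7, 336.5 and 112.4 TPM on DLL4. The part of these markers in the IGFBP1 differences was not tested.

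IGFBP4 and IGFBP6 had the highest mean TPM of the tight binders over the 12 libraries. IGFBP4, which the protease PAPP-A cuts, lies on chromosome 17 (40443461 to 40457731, plus strand). In NT cells it was at 121.6 and 125.4 TPM on IgG and at 175.2 and 167.1 TPM on DLL4 (0.47 ± 0.16). TKO libraries had 174.9 and 187.6 TPM on IgG and 261.0 and 296.6 TPM on DLL4 (0.62 ± 0.16). NKO libraries had 165.3 and 220.9 TPM on IgG and 191.8 and 270.8 TPM on DLL4 (0.25 ± 0.16), with overlap. On IgG both edited lines lay above the NT libraries, by 0.55 and 0.63, and on DLL4 by 0.70 and 0.41. NKO library 2 exceeded library 1 on both coatings for IGFBP4 and also for IGFBP1, IGFBP2 and IGFBP6. Without NKO DLL4 library 2 the IGFBP4 difference from NT on DLL4 was 0.16.

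IGFBP6, which prefers IGF2 over IGF1, differed little between the groups. It lies on chromosome 12 (53097436 to 53102345, plus strand) and ranged from 64.0 to 91.6 TPM over the 12 libraries. Its differences between DLL4 and IgG were 0.07, -0.00 and -0.10 for NT, TKO and NKO, each with an SE of 0.15 and with overlapping libraries. TKO libraries were above NT libraries on IgG (0.35 ± 0.15) and on DLL4 (0.28 ± 0.15).

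Over the 12 libraries IGFBP2 had the lowest mean TPM of the binding proteins, though IGFBP1 lay below it in each NT library. IGFBP2 lies 7.7 kb from IGFBP5 on chromosome 2 (216632828 to 216664436, plus strand), again with 0 protein-coding genes between. It was at 0.674 and 0.323 TPM in NT cells on IgG and at 0.392 and 0.482 TPM on DLL4, and between 0.0875 and 0.203 TPM in the 4 TKO libraries. The NKO line showed 0.535 and 2.43 TPM on IgG and 1.05 and 2.61 TPM on DLL4. Unlike those of its neighbour IGFBP5, the IGFBP2 libraries on the 2 coatings overlapped in each line. The differences of DLL4 from IgG were -0.05, -0.03 and 0.25 for NT, TKO and NKO (SE 0.36 each). At such low levels and with 2 libraries per group, these values cannot show that a response was absent.

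IGFBP7 had the highest level of the 10 genes and ranked 508th of 35587 symbols by mean TPM. It lies on chromosome 4 (57030773 to 57110385, minus strand). In NT cells it was at 244.8 and 241.3 TPM on IgG and at 290.4 and 290.1 TPM on DLL4. The TKO line showed 269.7 and 244.9 TPM on IgG and 306.7 and 314.4 TPM on DLL4. The NKO line showed 310.1 and 312.3 TPM on IgG and 342.3 and 344.3 TPM on DLL4. DLL4 libraries exceeded IgG libraries in each line by 0.26, 0.27 and 0.14 (SE 0.06 each), the smallest of the differences without overlap shared by all 3 lines.

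**Figure D2:**
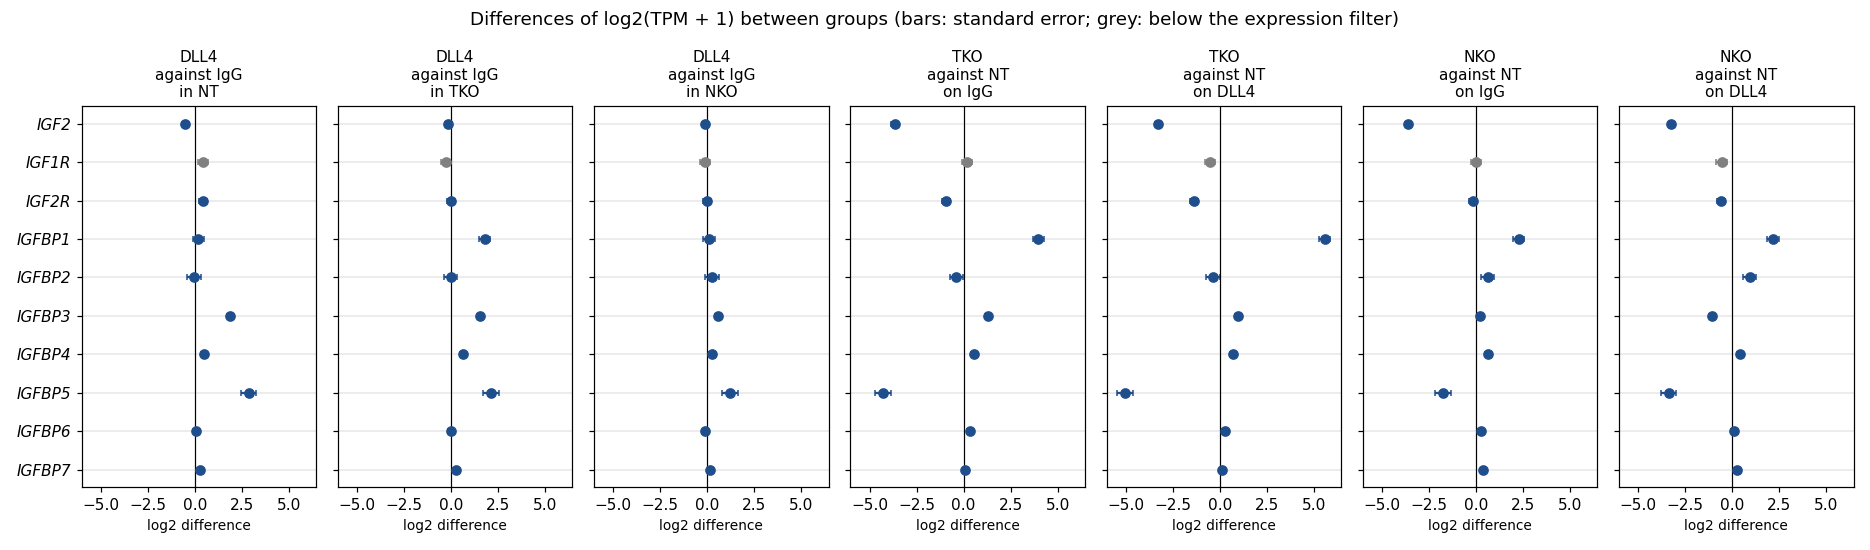
Differences of log2(TPM + 1) for the 10 genes in the 7 comparisons, with bars for the standard error of the fit and grey for IGF1R, which lay below the expression filter. IGFBP5 and IGFBP3 stand to the right in the 3 DLL4 panels, and IGF2 and IGFBP5 to the left with IGFBP1 to the right in the panels of the edited lines.

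Counted over the family, 6 of 10 genes were higher and 1 lower without overlap on DLL4 in NT cells, where 30.7% and 27.9% of all tested genes were. In TKO cells 5 were higher and 1, IGF1R, was lower, against 28.5% and 21.8% of all genes. In NKO cells 3 were higher and 2 lower, against 18.9% and 15.1%. Between TKO and NT cells 5 were higher and 4 lower on IgG (background 34.0% and 28.0%) and 5 and 5 on DLL4 (37.1% and 28.2%). Between NKO and NT cells 3 were higher and 2 lower on IgG (background 30.9% and 21.2%) and 4 and 5 on DLL4 (37.1% and 25.0%). The family counts include IGF1R, while the background holds only genes that passed the filter. Since the genes were chosen with these values known, nothing is read from the comparison of such counts with the background.

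The makeup of the IGFBP mRNA pool differed between the lines. The summed TPM of IGFBP1 to IGFBP6 was 223.6 ± 1.21 for NT libraries on IgG and 492.8 ± 49.8 for those on DLL4 (SD, n = 2). It was 290.5 ± 9.29 and 458.5 ± 24.4 in TKO cells, and 289.8 ± 61.8 and 337.2 ± 67.5 in NKO cells. DLL4 libraries lay above IgG libraries in NT and TKO cells, and overlapped with them in NKO cells. IGFBP5 made up 14.4% ± 1.52 of the NT sum on IgG and 48.6% ± 4.58 on DLL4, against 0.252% and 1.73% in TKO cells and 3.19% and 6.64% in NKO cells. IGFBP4 made up 34.8% of the sum in NT cells on DLL4 and 60.8% in TKO cells on DLL4, and IGFBP1 made up 13.8% there. A similar total on DLL4 in NT and TKO cells was thus composed of different binding proteins.

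**Figure D3:**
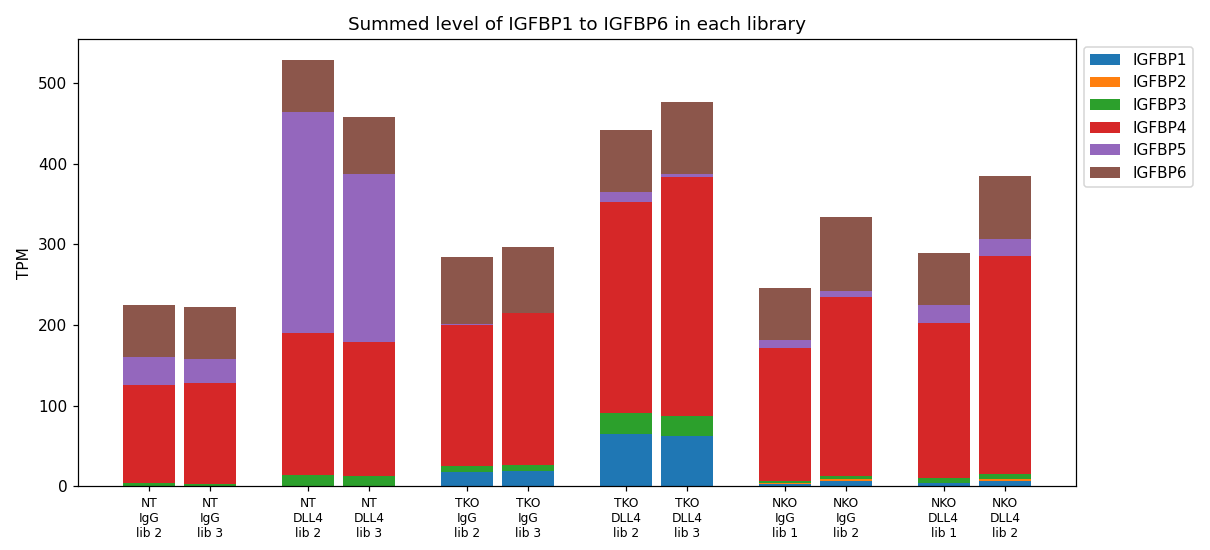
Summed TPM of IGFBP1 to IGFBP6 as stacked bars, 1 bar per library. IGFBP5 (purple) fills 48.6% of the NT bars on DLL4 on average and 1.73% of the TKO bars, where IGFBP1 (blue) fills 13.8%.

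For each family gene that reached a mean of 5 TPM in some group and varied at least 2-fold between groups, the 3 tested genes with the most similar pattern were found by Pearson's r over the 12 libraries on log2(TPM + 1). The libraries form 6 groups of 2, so r follows group means and carries no p. The pattern of IGF2 was most like that of GJA3, a connexin (r = 0.991), MAGEA1 and MAGEA6, which are cancer-testis antigens (r = 0.990 each). MAGEA1 was at 10.8 and 8.30 TPM in NT cells on IgG and DLL4 and between 0.154 and 0.222 TPM in the means of the edited groups. GJA3 was at only 1.18 and 1.06 TPM in NT cells and between 0.206 and 0.272 TPM in those means. Like IGF2, GJA3, MAGEA1 and MAGEA6 passed the filter only through NT libraries. MAGEA genes are near-identical copies, so reads may be split between them. For IGF2R the nearest were HADHA, an enzyme of mitochondrial fatty acid oxidation (0.981), PCDHB5, a protocadherin (0.974), and MYORG (0.970).

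IGFBP1 was most like CYTL1, a secreted cytokine-like protein (r = 0.982), GIMAP8 (0.978) and LTBP3, which binds latent TGF-beta (0.977). IGFBP3 was most like the amino acid transporter SLC1A4 (0.979), APOL3 (0.970) and the ligand gene DLL4 (0.970). The means of SLC1A4 on IgG and DLL4 were 2.92 and 18.2 TPM for NT, 14.0 and 34.2 for TKO and 4.92 and 6.83 for NKO. IGFBP4 was most like NPC2, a lysosomal cholesterol carrier (0.968), P4HTM (0.963) and H2AFJ (0.940), and IGFBP5 like LIPG, endothelial lipase (0.982), AC073264.3 (0.974) and CACNA2D4 (0.972). LIPG was at 272.5 and 512.1 TPM in NT cells on IgG and DLL4, at 66.2 and 133.0 TPM in TKO cells and at 138.7 and 216.1 TPM in NKO cells.

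Few genes around IGF2 could be tested, and in TKO cells those called were higher than in NT cells. Within 500 kb of IGF2 lie 21 protein-coding genes in GENCODE 29, of which 6 were tested. By limma none of them fell between TKO and NT cells, and 0 were lower at an unadjusted p under 0.05. On IgG 3 rose, among them CTSD, which encodes the lysosomal protease cathepsin D (0.64 ± 0.08, limma adjusted p = 0.00012), and on DLL4 5 rose, CTSD by 0.84 ± 0.08 (adjusted p = 1.3e-05). Of the 11 calls of these genes over all comparisons, 5 held under every setting run and 6 were lost under at least 1. Of the TKO calls on IgG, that of TSSC4 was lost without NT IgG library 2 (adjusted p = 0.09) or TKO IgG library 2 (0.076) and in a fit of the 4 libraries alone (0.094), as was that of CD81 in that fit (0.059). On DLL4 the call of AC068580.4 (0.67 ± 0.22, limma adjusted p = 0.045) was lost under 10 settings, with adjusted p = 0.22 without NT DLL4 library 2 and 0.19 without TKO DLL4 library 2. TKO calls made up 27.6% of all tested genes on IgG and 26.6% on DLL4. Between NKO and NT cells 2 fell on IgG, where 10.7% of all genes were called, and none was called on DLL4, where 20.7% were and 1 of the 6 was lower at an unadjusted p under 0.05. The 2 were MRPL23 (-0.51 ± 0.11, adjusted p = 0.017) and the tetraspanin gene CD81 (-0.32 ± 0.07, adjusted p = 0.017), and both calls ended without NT IgG library 3 (adjusted p = 0.13 and 0.14) or NKO IgG library 1 (adjusted p = 0.095 and 0.11), and in a fit of the 4 libraries alone (0.18 and 0.17). With a window of 200 kb, chosen after seeing the data, 1 tested gene remained, MRPL23.

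Other genes of the IGF pathway were counted from lists written for the purpose with earlier results of these data known, which held 70 genes outside the family, 54 of them tested. IGF1, INS, PAPPA and IRS1 were among those below the filter. In NT cells on DLL4 10 rose and 4 fell, or 25.9% of those tested, against 16.0% of all genes tested (limma, adjusted p under 0.05), and the median difference was 0.07 against 0.01. In TKO cells 5 rose and 4 fell (16.7%, against 6.51% of all genes). In NKO cells 1 rose and 1 fell (3.70%, against 0.782%). Between TKO and NT cells 14 rose and 3 fell on IgG and 10 rose and 7 fell on DLL4, both 31.5%, against 27.6% and 26.6% of all genes. Between NKO and NT cells 4 rose and 1 fell on IgG (9.26%, against 10.7%) and 4 rose and 4 fell on DLL4 (14.8%, against 20.7%). These counts include INSR (in NT cells, and in both edited lines against NT on DLL4) and IRS2 (in TKO cells against NT), which passed the filter only through the libraries where they were high. As the lists were written with earlier results known, nothing is read from these shares.

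Proteins with an IGFBP-type domain outside the family held the largest DLL4 differences of these lists in NT cells, those of HTRA3 and ESM1. Of 6 tested, 3 rose and 2 fell in NT cells, or 83.3%, against 16.0% of all genes tested. The list was written with earlier results of these data known, so nothing is read from this share. ESM1, or endocan, a tip-cell marker that carries such a domain, fell from 241.5 and 231.5 TPM on IgG to 58.9 and 58.1 TPM on DLL4 in NT cells (-2.00 ± 0.13, limma adjusted p = 4e-06). It also fell in the TKO line (-1.50 ± 0.13, adjusted p = 6.6e-05) and in the NKO line (-1.02 ± 0.13, adjusted p = 0.0034). Against NT on DLL4, ESM1 was higher in TKO cells (1.22 ± 0.13, limma adjusted p = 3.6e-05) and in NKO cells (1.25 ± 0.13, adjusted p = 6.9e-05). HTRA3, a secreted serine protease, rose from 13.8 and 13.3 TPM to 65.7 and 67.5 TPM in NT cells (2.21 ± 0.11, limma adjusted p = 7.1e-07). It rose in TKO cells (1.31 ± 0.11, adjusted p = 6.6e-05) and in NKO cells (0.85 ± 0.11, adjusted p = 0.0048), and the NKO call ended without NKO IgG library 1 (adjusted p = 0.052) or NKO DLL4 library 2 (adjusted p = 0.053). A fit of the NKO libraries alone gave adjusted p = 0.36 for ESM1 and 0.39 for HTRA3 in NKO cells. Against NT on IgG, HTRA3 was higher in TKO cells (0.93 ± 0.11, limma adjusted p = 0.00013) and in NKO cells (0.52 ± 0.11, adjusted p = 0.013). Against NT on DLL4, HTRA3 was lower in NKO cells (-0.85 ± 0.11, limma adjusted p = 0.0004) and not called in TKO cells (0.03 ± 0.11). ESM1, CCN2 and STC1 had already been seen to differ in these data, so they are no independent sign of a direction.

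The matricellular genes CCN1 and CCN2 were higher in both edited lines on IgG. CCN2, or connective tissue growth factor, was at 335.6 and 374.4 TPM in NT cells on IgG, at 641.6 and 716.0 TPM in TKO cells and at 633.4 and 507.1 TPM in NKO cells. It rose in TKO cells against NT (0.93 ± 0.10, limma adjusted p = 7e-05) and in NKO cells (0.68 ± 0.10, adjusted p = 0.0017, and 0.078 in a fit of the 4 libraries alone). CCN2 also rose on DLL4 in NT cells (1.14 ± 0.10, limma adjusted p = 4.7e-05) and in TKO cells (1.08 ± 0.10, adjusted p = 0.00013). On IgG, CCN1 rose against NT by 1.11 ± 0.09 in the TKO line (limma adjusted p = 9e-06) and by 0.85 ± 0.09 in the NKO line (adjusted p = 0.00019).

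**Figure D4:**
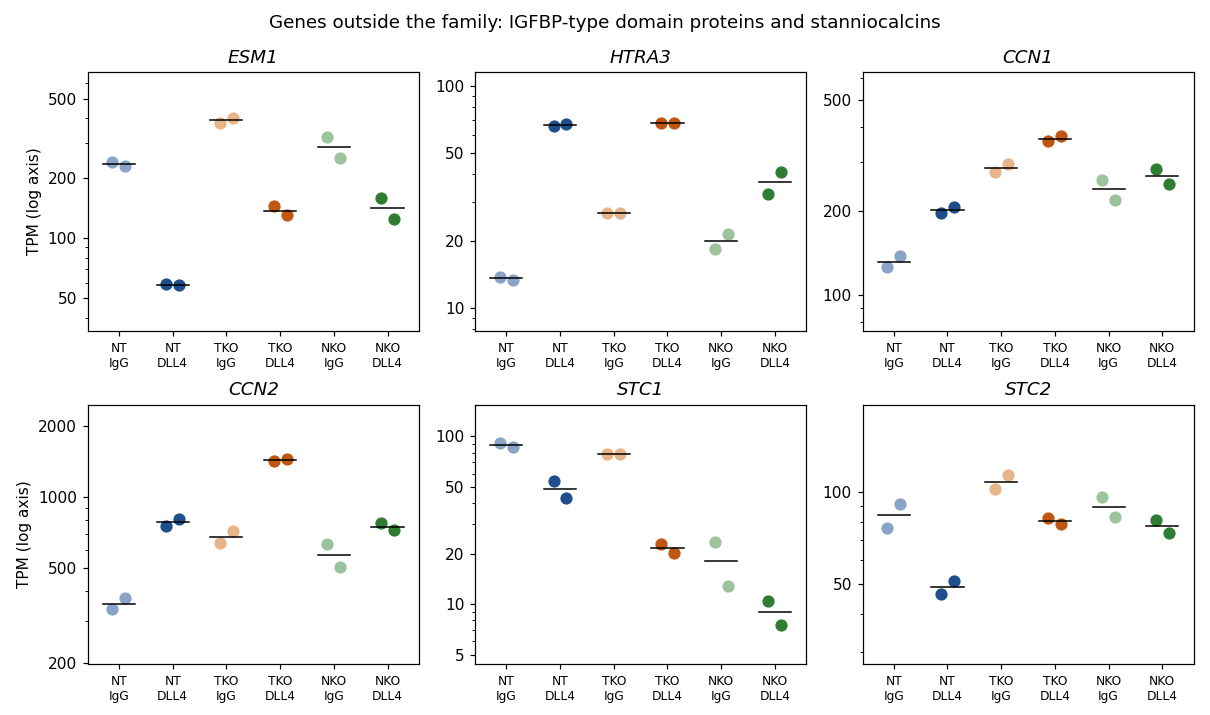
TPM on log axes of 6 genes outside the family, in the colours of the NT (blue), TKO (orange) and NKO (green) groups; points are libraries and lines are means of 2. ESM1 and STC1 are lower and HTRA3 and CCN2 higher on DLL4 (dark) than on IgG (pale) in each line by their means.

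Of the IGFBP proteases and their inhibitors 5 were tested. In NT cells on DLL4 1 rose and 2 fell (60%, against 16.0% of all genes), and between TKO and NT cells on DLL4 1 rose and 4 fell (100%, against 26.6%). In the latter comparison STC2 rose, while PAPPA2, HTRA1, ADAM12 and STC1 fell. The list was written with earlier results of these data known, so nothing is read from these shares. STC1 and STC2 encode stanniocalcins, which inhibit PAPP-A. STC1 was at 91.0 and 87.0 TPM in NT cells on IgG and at 54.2 and 43.0 TPM on DLL4. The TKO libraries had 78.8 and 78.4 TPM of it on IgG, and it fell there to 22.8 and 20.2 TPM on DLL4 (-1.82 ± 0.23, limma adjusted p = 0.00081). For NKO the values were 23.5 and 12.9 TPM on IgG, below NT (-2.29 ± 0.23, limma adjusted p = 9.8e-05), and 10.4 and 7.48 TPM on DLL4 (-2.32 ± 0.23, adjusted p = 5.3e-05). STC2 fell on DLL4 in NT cells, from 76.6 and 91.7 TPM to 46.7 and 51.3 TPM (-0.76 ± 0.11, limma adjusted p = 0.0012). Against NT on DLL4, STC2 was higher in TKO cells (0.70 ± 0.11, limma adjusted p = 0.00067) and in NKO cells (0.65 ± 0.11, adjusted p = 0.0022). STC1 was lower than in NT cells in both (-1.13 ± 0.23 in TKO cells, limma adjusted p = 0.0033).

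HTRA1, a serine protease that can cut IGFBP5, was at 102.6 and 92.0 TPM in NT cells on IgG and rose to 175.5 and 153.1 TPM on DLL4 (0.75 ± 0.13, limma adjusted p = 0.0031). TKO libraries on DLL4 lay lower, at 87.2 and 102.8 TPM (-0.79 ± 0.13, adjusted p = 0.00086). On IgG it was higher in NKO cells, at 144.3 and 170.3 TPM (0.68 ± 0.13, limma adjusted p = 0.006), which no longer passed without NT IgG library 3 (adjusted p = 0.065) and in a fit of the 4 libraries alone (adjusted p = 0.057).

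Among the intracellular genes, the PI3K subunits PIK3CD and PIK3R3 moved in opposite directions in TKO cells. PIK3CD, a catalytic subunit, was at 0.876 and 1.495 TPM in the NT libraries on IgG and at 5.77 and 6.09 TPM in TKO libraries (1.68 ± 0.19, limma adjusted p = 9.4e-05). PIK3R3, a regulatory subunit, was at 6.58 and 4.70 TPM in NT cells on DLL4 and at 1.77 and 1.56 TPM in TKO cells (-1.31 ± 0.17, limma adjusted p = 0.00018). In all, 4 of 22 genes of the PI3K, AKT and FOXO list rose and 2 fell between TKO and NT cells on IgG (27.3%, against 27.6% of all genes), and limma called none between NKO and NT cells, where 3 had an unadjusted p under 0.05 on IgG and 3 on DLL4. Of 9 receptor adaptors tested, 3 rose in TKO cells on IgG (33.3%, against 27.6%), IRS2 among them. Both shares are near that of all genes.

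The 2 genes that follow lie outside the naming rule and were chosen after their values were seen. Each passed the filter only through the libraries where it was high, so its levels are a description with no test. IRS2, an insulin receptor substrate, was below 0.05 TPM in every NT and NKO library, while TKO libraries had 2.04 and 2.62 TPM on IgG and 3.56 and 3.50 TPM on DLL4. INSR, the insulin receptor and the other signalling receptor of IGF2, had 0.749 and 0.706 TPM in the NT libraries on IgG and 2.03 and 1.49 TPM in those on DLL4, the only libraries at 1 TPM or more. The TKO libraries gave 0.788 and 0.633 TPM of INSR on IgG and 0.707 and 0.474 TPM on DLL4. For NKO its values were 0.651 and 0.891 TPM on IgG and 0.539 and 0.766 TPM on DLL4. The NT libraries on DLL4 were thus the highest for INSR, and the TKO libraries for IRS2.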

How the data were processed

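Polyadenylated RNA of 12 libraries was measured, 2 in each of 6 groups of 3 lines and 2 coatings. The authors deposited 1 table of TPM per gene symbol. Per the submitters' processing notes the tools were kallisto and edgeR and the build hg38, and for versions and annotation no source used here gives a value. TPM of a library summed to 974989 to 977130, the read depth is unknown, and precision is the spread between 2 libraries. Columns name the group and carry other numbers than the labels, so each group's columns were taken as its libraries.

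Genes with at least 1 TPM in at least 2 libraries were kept (13299). From the deposited TPM, log2(TPM + 1) was computed and fitted by limma (3.58.1, under R 4.3.3). Each group had 1 mean, the variance followed a trend, tests were two-sided, and p-values were adjusted by Benjamini-Hochberg over the whole table, at a threshold of 0.05 (6 residual degrees of freedom, 10.8 after moderation). The fit was tested on simulated data. Fold changes on this scale understate the change of low genes. Folds in the text are ratios of mean TPM. IGF1R, below the filter, was fitted without it. With 2 libraries against 2, an exact permutation test cannot go below p = 0.333. Plots used matplotlib 3.10.9 (Python 3.11.15).

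The family, the pathway lists, the markers and the tests were chosen with earlier results of these data known. The rule for naming took all 10 family genes, up to 4 called pathway genes per comparison with the smallest p and 5 TPM or more in some group's mean, and the 3 most similar genes per family gene. Positions come from GENCODE 29 (GRCh38) and upstream sequences from RefSeq (GRCh38.p14). Alternatives were median-of-ratios rescaling, a pseudocount of 0.1, keeping every symbol, keeping means above 5 TPM, leaving out KPNA2P2, a fit of only the libraries compared, a replicate block, adding INS-IGF2 to IGF2, and leaving out each library in turn. The smooth muscle or fibroblast markers had 1 of 8 genes at 1 TPM or more in every library (ACTA2), the leukocyte markers 0 of 5, the epithelial markers 3 of 5 (keratins, with EPCAM at most 0.210 TPM) and the hepatocyte markers 1 of 5.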

Additional observations from a re-analysis of the deposited data

How the results depend on the processing

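Of 1530 differences of the family genes under other settings, 1421 moved by less than 1 SD, 109 moved by more and none changed sign among those above 2 SE. Of 1343 values of the 72 pathway calls 1164 stayed past the threshold, and 38 calls did so under every setting run. Fitting only the libraries compared gave 1085 called genes for DLL4 against IgG in NT, with 166 for TKO and 0 for NKO (limma, with 865 at an unadjusted p under 0.05), 2245 for TKO against NT on IgG, and 424 and 1835 for NKO against NT on IgG and DLL4. Pathway calls were then 4 for DLL4 in TKO, 0 in NKO (limma, with 8 at an unadjusted p under 0.05), 10 for TKO and 2 for NKO against NT on IgG. Without a filter DLL4 in TKO gave 5 pathway calls, and a filter at a mean of 5 TPM gave 11 for TKO against NT on DLL4.

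With the replicate block, DLL4 in NKO gave 4 pathway calls in place of 2, and no other count moved by over 1.5 times. Deviations of equally numbered libraries correlated at -0.00029 for NT, 0.016 for TKO and 0.28 for NKO. The numbers were not taken to pair libraries, though the NKO value was not near that of the other lines. Overlap of NKO libraries between the coatings, as given above, takes no account of such a pairing.

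Leaving out each library in turn gave 960 to 2386 called genes for DLL4 against IgG in NT, with 307 to 1024 for TKO and 37 to 116 for NKO, 2430 to 3919 and 2298 to 3735 for TKO against NT on IgG and DLL4, and 664 to 1589 and 1434 to 2998 for NKO. Pathway calls were 6 to 15, 4 to 9, 1 to 3, 12 to 20, 12 to 19, 3 to 8 and 4 to 10 in the same order. Pathway calls moved by over 1.5 times for DLL4 in NT without NT IgG library 2 (9) or DLL4 library 2 (6), in TKO without TKO DLL4 library 2 (4) or 3 (5), and in NKO without NKO IgG library 1 or DLL4 library 2 (1 each). The same held for NKO against NT without NT IgG library 3 (3) or NKO IgG library 2 (8) on IgG, and without NT DLL4 library 2 or 3 (5 each) or NKO DLL4 library 1 (4) on DLL4.

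Counts of all genes moved as far for DLL4 in NT without any of its 4 libraries, in TKO without any of its 4 and in NKO without NKO IgG library 1 (41) or DLL4 library 2 (37). They did so for TKO against NT without NT IgG library 3 (2430) or TKO DLL4 library 2 (2298), and for NKO against NT without NT IgG library 2 or 3 or NKO IgG library 1 (812, 664 and 822) and without any of the 4 DLL4 libraries. The share of calls that were higher went from 63.0% to 52.4% for DLL4 in TKO without KPNA2P2, and from 55.1% to 44.9% for NKO against NT on DLL4 under median-of-ratios rescaling. The cause was not tested. Where a library was left out, the lone library of its group was assumed to vary like the others. Depth is unknown, so it sets no stated limit.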
